A study of Mus musculus with 56 samples.

Results

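The genes described here are Cxcl9, Cxcl10 and Cxcl11, 3 neighbouring chemokine genes on mouse chromosome 5. Members are all ChIP-seq peaks that the deposited lists name for 1 of these genes, in every antibody and condition, which gave 247 peaks of 1610519 in all. Of them 3 peaks in 3 samples were named for Cxcl9, 94 peaks in 51 samples for Cxcl10, and 150 peaks in 56 samples for Cxcl11, out of 56 samples and 20352 genes named by any peak.

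CXCL9, CXCL10 and CXCL11 are secreted proteins that attract T cells and NK cells through their shared receptor CXCR3. In macrophages, lipopolysaccharide (LPS), a cell wall component of Gram-negative bacteria, signals through TLR4 to NF-κB, of which p65 is a subunit, and to the type I interferons, and the genes of this family are known targets of NF-κB and of IRFs. IL-4 activates STAT6 and drives alternative macrophage polarization.

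ChIP-seq was performed in bone marrow-derived macrophages (BMDMs) of wild-type C57BL/6 mice of 8 to 12 weeks, differentiated for 6 days with L929 supernatant, a source of M-CSF. In the first experiment, untreated BMDMs and BMDMs given IL-4 (20 ng/ml) for 1 hr were compared with 8 antibodies and 2 samples per group, against H3K27Ac (an active histone mark), p300 (a histone acetyltransferase), PU.1 (a lineage-determining factor), HDAC1, HDAC2, HDAC3 (histone deacetylases), and the RNA polymerase II forms RNAPII-pS5 (initiation) and RNAPII-pS2 (elongation). In the second, BMDMs were left untreated (ctrl/ctrl), given IL-4 (20 ng/ml) for 24 hr (IL-4 PT/ctrl), given LPS (100 ng/ml) for 1 hr (ctrl/LPS), or pretreated with IL-4 for 24 hr before LPS for 1 hr (IL-4 PT/LPS), and RNAPII-pS5, RNAPII-pS2 and p65 were profiled in 2 samples per group. The study describes its replicates as independent biological ones, and the labels tie no animal to a replicate.

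The value of a MACS2 peak is a score on a −log10 scale, made from a p- or q-value without a statement of which, so a fold change in score is not a fold change in bound protein, and H3K27Ac regions carry a normalized tag signal. Lists held 8440 to 71027 peaks, no reads were analysed here, and depth is unknown. p65 lists were longest with LPS, at 9556 to 11026 peaks without it, 26305 to 26820 in ctrl/LPS and 36738 to 38955 in IL-4 PT/LPS. The p300 list of untreated replicate 1 held 44787 peaks against 66710 to 69360 in the other 3. Of 8 macrophage marker genes, 8 carried an RNAPII-pS5 peak in both untreated samples and 6 an H3K27Ac region (Cd68 and Lyz2 had none). RNAPII-pS5 peaks were fewer at T cell (2 of 5), B cell (1 of 4), neutrophil (2 of 5), dendritic cell (2 of 3) and stromal markers (0 of 3). No list held a symbol for Trac or Ly6g, so these could not be found. The B cell marker Ms4a1 carried an H3K27Ac signal of 867 and 850. The labels give HDAC3 the same antibody catalogue number as H3K27Ac. In bulk chromatin, fewer cells carrying a protein and less of it per cell cannot be told apart.

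All 3 genes lie on the minus strand. In the GENCODE vM21 annotation of GRCm38, the assembly of the files (mm10), Cxcl9 is at chr5:92321347-92328079, Cxcl10 at chr5:92346638-92348889 and Cxcl11 at chr5:92359544-92365485. In this C57BL/6 reference Cxcl11 is typed as a polymorphic pseudogene, and the RefSeq start used by the files lies inside the longer GENCODE gene. Art3, on the plus strand at chr5:92331827-92414628, spans Cxcl10 and Cxcl11, so all their distal peaks are annotated to its intron 2 of 9, and 142 of the 150 Cxcl11 peaks are intronic. Of the 94 Cxcl10 peaks, 48 were intronic, 31 at the promoter, 10 in the 3′ UTR and 5 at the transcription termination site.

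The peaks gathered at a few places, named here by their distance from the RefSeq start of the gene, where minus means before it. The Cxcl10 promoter (−0.1 kb) was occupied in 30 samples by 8 antibodies, with the exception of H3K27Ac, and the element at −4.8 kb of Cxcl10 in 43 samples by 8 antibodies, with the exception of HDAC3. Before Cxcl11, the element at −5.3 kb was occupied in 48 samples and that at −11.7 kb in all 56 samples, each by 9 antibodies. The element at −7.2 kb was occupied in 8 samples by 3 antibodies, the start of Cxcl11 by p65 alone in 4 samples, and the body of Cxcl10 by RNAPII alone in 13 samples. The amplicon with which the study assayed the Cxcl11_-11Kb enhancer maps to chr5:92375106-92375178, 11.8 kb before the start, and a peak overlapped it in 40 samples and 6 antibodies. The upstream side of Cxcl11 was therefore occupied in unstimulated cells, whereas no peak was listed at its start.

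**Figure D1:**
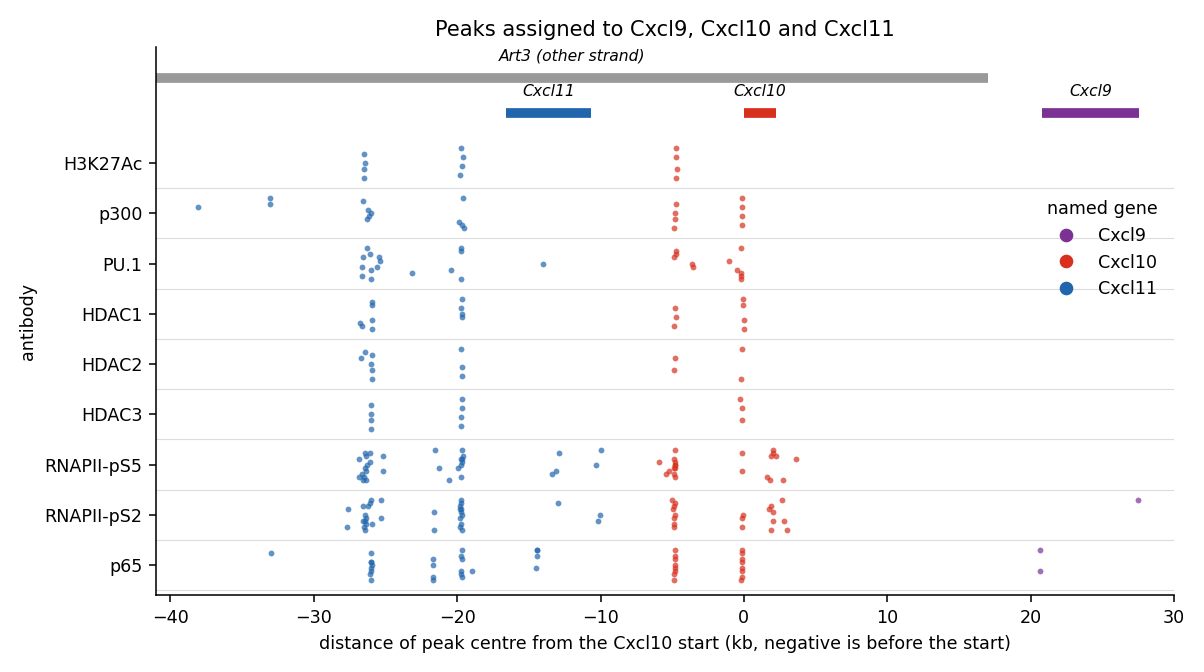
Centres of all 247 peaks named for Cxcl9, Cxcl10 and Cxcl11, by antibody (rows) and distance from the Cxcl10 start in kb along the direction of transcription, each point being a peak of a sample and each bar on top a gene as GENCODE gives it. Peaks stack at the Cxcl10 promoter and at the elements −4.8 kb before Cxcl10 and −5.3 and −11.7 kb before the RefSeq start of Cxcl11, and Cxcl9 has 3 peaks.

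The sequences below are from places that p65 or RNAPII occupied, given on the minus strand, 5′ to 3′, from RefSeq GRCm38. The p65 window at −7.2 kb of Cxcl11 was searched as well and is not printed. Capitals mark matches to the κB pattern GGGNNNNNCC, the ISRE pattern GAAANNGAAA or the STAT6 pattern TTCNNNNGAA on either strand. The promoters are the 250 bases before the start and the others 200 bases at the centre of the p65 peaks, except that 30 bases are printed at the Cxcl11 start, where a longer annotated transcript has its UTR.
Cxcl9 promoter, chr5:92328080-92328329: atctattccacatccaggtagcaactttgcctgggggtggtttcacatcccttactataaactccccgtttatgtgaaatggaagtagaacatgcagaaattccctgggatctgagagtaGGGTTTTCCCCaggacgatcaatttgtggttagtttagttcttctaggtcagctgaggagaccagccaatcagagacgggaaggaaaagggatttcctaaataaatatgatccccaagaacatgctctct
Cxcl10 promoter, chr5:92348890-92349139: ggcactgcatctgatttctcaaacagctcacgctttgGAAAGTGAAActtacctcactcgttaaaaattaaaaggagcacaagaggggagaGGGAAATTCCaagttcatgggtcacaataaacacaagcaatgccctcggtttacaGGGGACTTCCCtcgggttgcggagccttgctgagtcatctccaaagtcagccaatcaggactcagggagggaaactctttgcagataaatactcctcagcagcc
Cxcl10 −4.8 kb, chr5:92353580-92353779: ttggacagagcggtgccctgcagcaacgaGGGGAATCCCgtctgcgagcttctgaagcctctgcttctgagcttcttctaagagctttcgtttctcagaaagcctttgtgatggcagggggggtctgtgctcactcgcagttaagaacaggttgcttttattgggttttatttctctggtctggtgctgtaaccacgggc
Cxcl11 start, chr5:92363340-92363369: tacgtgagtcaaggaGGGGAATTCCtgata
Cxcl11 −5.3 kb, chr5:92368487-92368686: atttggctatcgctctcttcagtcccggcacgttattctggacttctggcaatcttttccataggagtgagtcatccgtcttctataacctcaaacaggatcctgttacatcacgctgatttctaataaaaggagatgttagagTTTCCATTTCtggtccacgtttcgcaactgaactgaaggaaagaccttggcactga
Cxcl11 −11.7 kb, chr5:92374802-92375001: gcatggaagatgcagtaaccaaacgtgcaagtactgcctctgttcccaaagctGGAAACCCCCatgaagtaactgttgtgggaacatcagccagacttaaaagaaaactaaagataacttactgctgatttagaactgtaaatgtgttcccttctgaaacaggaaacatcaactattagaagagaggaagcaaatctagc

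The Cxcl10 promoter held an ISRE match at −213 to −204, a κB match at −159 to −150 and 2 overlapping κB matches between −104 and −94, whereas the Cxcl9 promoter held 2 overlapping κB matches between −130 and −120 and no ISRE match. Of 32851 promoters in RefSeq, 45.8% held the κB pattern within 250 bases and 2.98% the ISRE pattern. The patterns of GAS (TTCNNNGAA), AP-1 (TGANTCA) and PU.1 (GAGGAAG) were searched as well and are not in capitals. The Cxcl10 promoter held an AP-1 match at −74 to −68, as did 6.75% of promoters at any position, whereas 7.02% held GAS and 10.6% PU.1. At −4.8 kb of Cxcl10 there were a κB and a GAS match, at the Cxcl11 start a κB match and an AP-1 match, at −5.3 kb an AP-1 and an ISRE match without a κB match, and at −11.7 kb a κB match and a PU.1 match. The window at −7.2 kb of Cxcl11 held an AP-1 match and no κB match. Over the central 200 bases of 51410 p65 regions, 35.1% held κB, 6.46% ISRE, 8.47% GAS, 21.8% AP-1 and 18.5% PU.1 matches, so κB, AP-1 and PU.1 letters are common in such windows. No STAT6 match stood in these windows, and 5.85% of promoters and 8.25% of p65 regions held one.

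In untreated BMDMs the −11.7 kb element before Cxcl11 carried the highest H3K27Ac signal of the locus, and 1 hr of IL-4 gave no call for Cxcl10 or Cxcl11 in any of 8 antibodies. The H3K27Ac signal at −11.7 kb was 333 and 304 untreated and 281 and 294 with IL-4. At −5.3 kb it was 59.2 and 62.5 untreated and 57.6 and 46.2 with IL-4, and at −4.8 kb of Cxcl10 it was 68.1 and 73.7 against 67.2 and 67.7. Values of single samples, here and below, are before centring on the median of each sample. That median, over regions with a signal in every sample, was 0.05 log2 units lower with IL-4. Relative to it, limma gave −0.02 at −4.8 kb (adjusted p = 0.865), −0.18 at −5.3 kb (0.350) and −0.10 at −11.7 kb (0.369). Before centring, both IL-4 samples lay below both untreated samples at all 3 elements, without overlap, and none of these differences was called. With 2 samples per group the smallest two-sided exact permutation p is 0.333, so such a separation is weak evidence. The share of all regions that separated in this way was not counted. Both limits hold for every comparison of 2 against 2 samples below. Summed over each gene, H3K27Ac changed by −0.15 log2 units for Cxcl11 (95% interval −0.32 to 0.01, adjusted p = 0.128) and by −0.06 for Cxcl10 (adjusted p = 0.515), in limma across all genes with Benjamini-Hochberg adjustment, which gives all adjusted p-values below. In the same fit 32.8% of all genes were called at an adjusted p of at most 0.05.

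p300 occupied the promoter and all 3 upstream elements. Its score at −5.3 kb was 41.0 and 104 untreated and 134 and 98.2 with IL-4, and at −11.7 kb 35.8 and 101 against 123 and 108. At the Cxcl10 promoter it was 18.6 and 53.8 untreated and 65.01 and 51.8 with IL-4. The low value of each untreated pair was replicate 1, the sample with the short p300 list, and the groups overlapped at the promoter and at −5.3 kb. PU.1 was strongest at −11.7 kb, at 70.9 and 47.4 untreated and 62.4 and 57.2 with IL-4, with the groups overlapping. At the Cxcl10 promoter PU.1 was weak, at 7.01 and 8.08 untreated and 11.1 and 17.1 with IL-4, both IL-4 samples being higher. The PU.1 median over regions was itself 0.33 log2 units higher with IL-4, and after centring the promoter changed by 0.54 (adjusted p = 0.856).

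HDAC1 and HDAC2 had peaks at the Cxcl10 promoter and all 3 upstream elements, and HDAC3 at all but −4.8 kb of Cxcl10. HDAC1 at the Cxcl10 promoter was 6.00 and 7.61 untreated and 3.36 and 2.44 with IL-4, both IL-4 samples being lower. The HDAC1 median over regions was 0.32 log2 units lower with IL-4, and after centring the promoter changed by −0.92 (adjusted p = 0.545). The highest HDAC1 peak at −11.7 kb was 6.17 and 4.89 untreated and 9.85 and 8.09 with IL-4, both IL-4 samples being higher. Its region was not called (1.02, adjusted p = 0.396). The same element held a further HDAC1 peak, at −12.3 kb, in both untreated samples and in neither IL-4 sample. That peak's region entered the fit through the untreated samples alone, so no test of it is given. HDAC2 at −11.7 kb was 10.18 and 3.72 untreated and 21.0 and 11.8 with IL-4, both IL-4 samples being higher. HDAC3 at the Cxcl10 promoter was 9.43 and 10.15 untreated, absent in IL-4 replicate 1 and 4.93 in replicate 2. At −11.7 kb HDAC3 was 28.6 and 16.6 untreated and 24.3 and 21.7 with IL-4, with the groups overlapping. Over the whole gene HDAC3 changed by −2.32 log2 units for Cxcl10 (SE 0.84, unadjusted p from limma 0.0446, adjusted p = 0.312), where 1 value is a floor for a missing peak.

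RNAPII-pS5 at −11.7 kb was 37.0 and 34.6 untreated and 28.3 and 32.9 with IL-4, both IL-4 samples being lower. Its median over regions was 0.11 log2 units lower with IL-4, and after centring the −11.7 kb element changed by −0.12 (adjusted p = 0.899). At −4.8 kb of Cxcl10 RNAPII-pS5 was 19.7 and 24.8 untreated and 21.7 and 11.9 with IL-4, with the groups overlapping. At −5.3 kb of Cxcl11 it was 15.1 and 5.10 untreated and 1.97 and 7.49 with IL-4, also with overlap. RNAPII-pS2 had no peak over the body of Cxcl10 in the untreated samples and scored 4.29 and 8.42 with IL-4. Over the whole gene it changed by 2.09, against a floor for the missing peaks in both untreated samples. The direction of this change follows the sample labels, whereas the names of the peaks inside the 4 RNAPII-pS2 lists carry the opposite treatment and give −2.09. Cxcl10 entered this fit through the 2 samples labelled IL-4 alone, so it had to differ, and no test of it is given. In the 16 fits of Cxcl10 and Cxcl11 limma called 0, and 2 passed an unadjusted p of 0.05, those of HDAC3 and RNAPII-pS2 at Cxcl10. The RNAPII-pS2 fit is the one that had to differ. The other 14 ranged from −0.81 to 0.49 (adjusted p 0.128 to 0.999). Over all genes 1.05% were called for RNAPII-pS5 and 0% for HDAC1, HDAC2, HDAC3, PU.1, p300 and RNAPII-pS2, where between 925 and 4053 genes passed the unadjusted p.

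**Figure D2:**
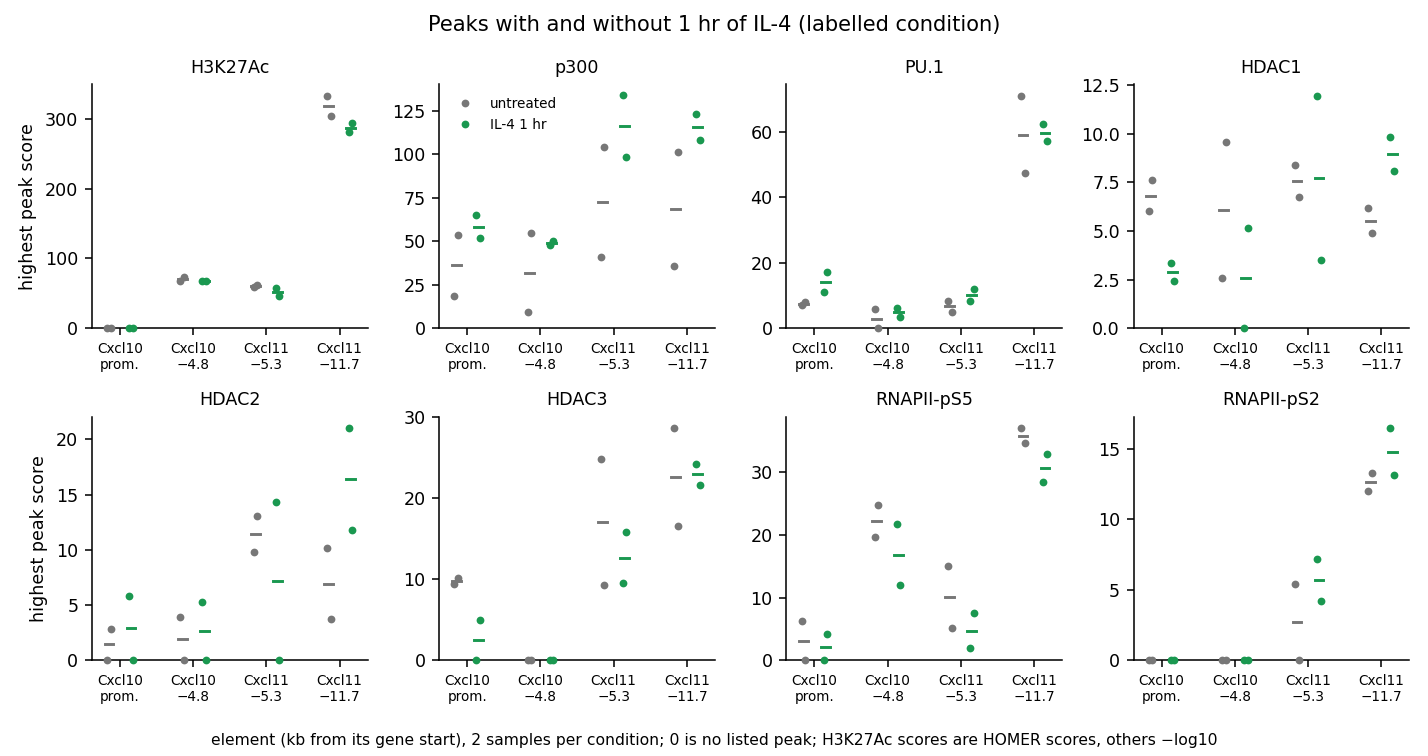
Scores (H3K27Ac, signal in normalized tags) of the elements of Cxcl10 and Cxcl11 in untreated samples and after 1 hr of IL-4, by antibody, each point being a sample, each line the mean of 2 samples and 0 standing for no peak. Before centring, both H3K27Ac samples with IL-4 lie a little below both untreated samples at every element that carries an H3K27Ac region, and most other groups overlap.

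LPS for 1 hr brought RNAPII over the whole body of Cxcl10. RNAPII-pS5 over the body of Cxcl10 scored 5.03 and 3.10 in ctrl/ctrl, with a further peak of 3.92 in replicate 2, and 83.7 and 79.0 in ctrl/LPS. In ctrl/LPS a single peak of 3977 and 3957 bp covered the gene and its end, and its score was above that of 99.7% of the peaks in its list. RNAPII-pS2 scored 2.92 in ctrl/ctrl replicate 1, had no peak in replicate 2, and scored 68.9 and 70.9 in ctrl/LPS, where its peaks were 3950 and 3959 bp wide. At the Cxcl10 promoter RNAPII-pS2 had ctrl/ctrl peaks of 9.05 and 3.95, the first of them above 55.4% of the peaks in its list. The ctrl/LPS samples of both antibodies lay far above the ctrl/ctrl samples, without overlap. Merging overlapping peaks joined the body to the smaller peaks beside it, so that the fitted region takes its ctrl/ctrl values from the peaks of 5.03 and 3.92 for RNAPII-pS5 and from the promoter peaks of 9.05 and 3.95 for RNAPII-pS2. This region rose by 4.37 log2 units for RNAPII-pS5 (95% interval 3.82 to 4.93, adjusted p = 0.00108), 29th highest of 27609 regions, and by 3.36 for RNAPII-pS2 (1.52 to 5.19, adjusted p = 0.0171). Of all regions 11.3% and 17.8% were called higher. The RNAPII-pS2 call was lost without ctrl/ctrl replicate 2 (2.77, adjusted p = 0.0981) or without ctrl/LPS replicate 1 or 2 (3.44 and 3.31, adjusted p = 0.0663 and 0.0719).

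Upstream of Cxcl10 no RNAPII difference was called with LPS alone. At −4.8 kb RNAPII-pS5 was 10.5 and 9.06 in ctrl/ctrl and 7.78 and 5.35 in ctrl/LPS, and RNAPII-pS2 was 13.5 and 12.7 against 8.88 and 11.6. The ctrl/LPS samples were the lower ones for both antibodies, and neither difference was called (−0.42, adjusted p = 0.616, and −0.55, adjusted p = 0.365). After IL-4 PT, RNAPII-pS5 at −4.8 kb rose with LPS from 3.99 and no peak to 12.6 and 8.15, a change of 2.09 (adjusted p = 0.0374, 11.2% of regions called higher) in which 1 value is a floor, and the interaction of 2.51 was not called (adjusted p = 0.0892). Samples were centred on their median over genes with peaks throughout, and this median differed between ctrl/LPS and ctrl/ctrl by −0.33 log2 units for RNAPII-pS5 and 0.22 for RNAPII-pS2, and between IL-4 PT/LPS and ctrl/LPS by 0.29 and 0.04. Summed over the peaks of Cxcl10, RNAPII-pS5 was 19.3 and 16.1 in ctrl/ctrl and 96.4 and 84.3 in ctrl/LPS, a rise of 2.68 (SE 0.51, adjusted p = 0.0128, 8.3% of genes called higher). RNAPII-pS2 was 25.5 and 16.6 against 77.8 and 82.5, a rise of 1.74 (SE 0.36, adjusted p = 0.0179, 11.8% of genes called higher). Both calls rest on few samples. The RNAPII-pS5 call was lost without ctrl/ctrl replicate 1 or 2 or ctrl/LPS replicate 1 (adjusted p = 0.0573 to 0.0676), and the RNAPII-pS2 call without ctrl/ctrl replicate 2 or ctrl/LPS replicate 1 or 2 (adjusted p = 0.0630 to 0.0870).

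At Cxcl11, RNAPII-pS5 peaks at −5.3 kb and small peaks along the locus were listed, within the LPS experiment, only in samples given LPS. RNAPII-pS5 at −5.3 kb had no peak in ctrl/ctrl and scored 21.0 and 21.1 in ctrl/LPS. In that experiment the region had a peak in the 4 samples with LPS and in none without, so it entered the fit through them and had to differ, and no test of it is given. In the 1 hr experiment the same place carried RNAPII-pS5 peaks in all 4 samples, none of which had LPS. At −11.7 kb, occupied throughout, RNAPII-pS5 was 13.48 and 15.03 in ctrl/ctrl and 17.2 and 25.5 in ctrl/LPS, where both LPS samples were higher and the difference was not called (0.74, adjusted p = 0.155). Summed over the peaks of Cxcl11, RNAPII-pS5 was 13.48 and 15.03 against 67.3 and 77.1, a rise of 2.66 (SE 0.40, adjusted p = 0.00601), beside 8.3% of all genes called higher. The sum adds the small peaks, and with the highest score in its place the change was 0.92 (adjusted p = 0.119) and the call was lost.

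Further RNAPII-pS5 peaks of Cxcl11 were present in both ctrl/LPS samples and in no other sample. They lay at −10.8 kb (9.21 and 12.1), −7.2 kb (3.89 and 5.09), 1.4 kb inside the gene (8.06 and 4.35) and at its end at 4.3 kb (3.54 and 5.41). RNAPII-pS2 peaks of the same kind lay at −13.3 kb (7.36 and 5.36), −10.9 kb (5.61 and 7.25), −7.2 kb (6.88 and 4.68) and 4.3 kb (11.1 and 5.70). Across all regions 1.7% for RNAPII-pS5 and 2.18% for RNAPII-pS2 had a peak in these 2 samples alone. Such regions passed the filter only through the samples in which they are high, so they had to differ, and no test of them is given as support.

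RNAPII-pS2 at the Cxcl11 elements occupied without LPS gave no call. At −5.3 kb it was 15.2 and 24.6 in ctrl/ctrl and 21.3 and 23.0 in ctrl/LPS, with overlap. At −11.7 kb it was 26.4 and 29.9 in ctrl/ctrl and 20.2 and 19.6 in ctrl/LPS, where both LPS samples were lower without a call (−0.69, adjusted p = 0.161). Summed over the gene it was 41.5 and 54.6 against 72.5 and 71.5, both LPS samples being higher, with a difference of 0.37 after centring that was not called (SE 0.29, adjusted p = 0.379). The body of Cxcl11 thus held small RNAPII-pS2 peaks at its end in ctrl/LPS, and the wide peak seen over Cxcl10 had no counterpart there.

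**Figure D3:**
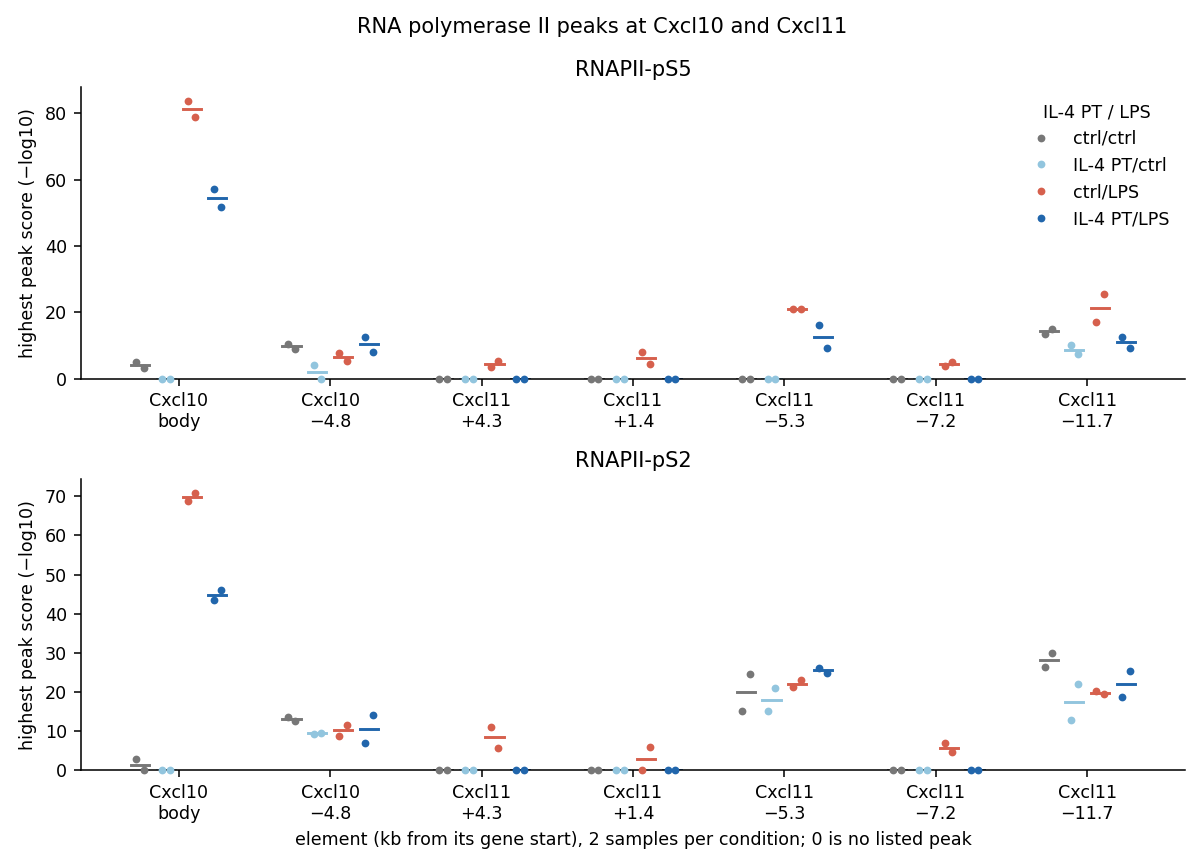
Highest RNAPII-pS5 and RNAPII-pS2 scores at the elements of Cxcl10 and Cxcl11 in the 4 groups of the LPS experiment, each point being a sample, each line the mean of 2 samples and 0 standing for no peak. The body of Cxcl10 rises from at most 5.03 to between 43.6 and 83.7 in the samples with LPS, and the IL-4 PT/LPS samples lie below the ctrl/LPS samples there.

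p65 occupied the Cxcl10 promoter before any stimulus, and its scores at the locus rose with LPS along with those of the whole list. At the Cxcl10 promoter p65 scored 51.6 and 62.4 in ctrl/ctrl and 70.6 and 63.6 in ctrl/LPS. At −4.8 kb it scored 17.1 and 13.1 against 50 and 43.1, and at −11.7 kb of Cxcl11 38.2 and 30.4 against 58.3 and 44.4. In each of these places both ctrl/LPS samples were above both ctrl/ctrl samples, by little at the promoter and most at −4.8 kb. Over the 3431 genes that had p65 peaks in all samples, the median score rose by 1.64 log2 units with LPS, and the region-level median by 1.04, and changes after centring are relative to these medians.

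Relative to the other p65 peaks, the Cxcl10 promoter changed by −0.80 with LPS (adjusted p = 0.0532) and −11.7 kb by −0.47 (adjusted p = 0.176), whereas without centring they changed by 0.24 and 0.58. The −4.8 kb element changed by 0.59 after centring (adjusted p = 0.113). Summed over the gene, p65 at Cxcl10 was 68.7 and 75.5 in ctrl/ctrl and 121 and 107 in ctrl/LPS, which is −0.98 relative to the median (SE 0.28, adjusted p = 0.0400) and 0.66 without centring (adjusted p = 0.113), and the centred call was lost without any 1 of the ctrl/ctrl, ctrl/LPS or IL-4 PT/LPS samples (adjusted p = 0.0755 to 0.123). At Cxcl11 it was 48.8 and 39.1 against 122 and 102, which is −0.29 relative to the median (adjusted p = 0.439) and 1.35 without centring (adjusted p = 0.00468). The direction of the p65 response of both genes thus turned with the scaling. Of all genes 19.1% were called higher and 16% lower after centring, and of all regions 26.9% higher.

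LPS also placed p65 where it had not been detected. At the Cxcl11 start p65 had no peak in the 4 samples without LPS and scored 16 and 11.2 in ctrl/LPS and 10.1 and 6.72 in IL-4 PT/LPS, over the κB match printed above. At −7.2 kb it had no peak without LPS and scored 12.6 and 20.2 in ctrl/LPS and 14.6 and 16.5 in IL-4 PT/LPS. The −7.2 kb window held no κB match. A peak in all 4 samples with LPS and in none without was found in 20.5% of p65 regions, and these members entered the fit only through the samples with LPS, so they had to differ. At the Cxcl9 promoter p65 scored 7.47 in ctrl/LPS replicate 1 and 5.43 in IL-4 PT/LPS replicate 2, and the other 6 samples had no peak.

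Cxcl9 had few other peaks in these lists. Its 1 further peak was an RNAPII-pS2 peak of 3.26 at the end of the gene in ctrl/LPS replicate 2, and H3K27Ac, p300, PU.1, the HDACs and RNAPII-pS5 gave none. Weaker occupancy than the peak callers' cut-off was not detectable in these files.

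**Figure D4:**
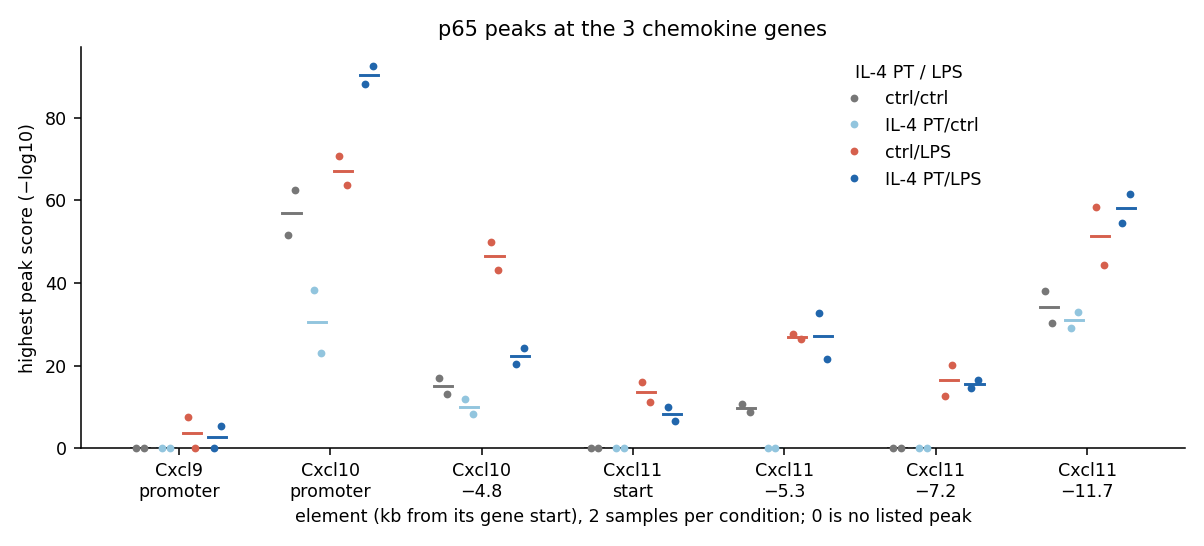
Highest p65 scores at the Cxcl9 promoter and the elements of Cxcl10 and Cxcl11 in the 4 groups, each point being a sample, each line the mean of 2 samples and 0 standing for no peak. The Cxcl10 promoter is occupied in all 8 samples (23.0 to 92.4), and the Cxcl11 start and −7.2 kb in the 4 samples with LPS.

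Pooling the 4 samples with LPS against the 4 without gave the grouping in which an exact test of a single value could pass 0.05. Each side mixes samples with and without IL-4 PT, and the splits did not keep these apart. Summed scores of Cxcl10 did not overlap for RNAPII-pS5 (60.0 to 96.4 with LPS, 0 to 19.3 without), RNAPII-pS2 (50.5 to 82.5 against 9.61 to 25.5) or p65 (107 to 121 against 31.2 to 75.5). For Cxcl11 they did not overlap for RNAPII-pS5 (18.4 to 77.1 against 7.41 to 15.03) or p65 (102 to 122 against 29.2 to 48.8), and overlapped for RNAPII-pS2 (44.9 to 72.5 against 27.9 to 54.6). The two-sided exact permutation p on log2(score + 1) was 0.0286 for each of the 5 without overlap, the smallest that 70 splits allow, 0.143 for RNAPII-pS2 at Cxcl11, and 0.429 (p65) and 1 (RNAPII-pS2) for Cxcl9, in a family of 8 tests. Of all genes, 6.12% (RNAPII-pS5), 17.1% (RNAPII-pS2) and 54.1% (p65) separated in this way, so that for p65 the separation is the common case.

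IL-4 for 24 hr without LPS lowered the summed RNAPII-pS5 of Cxcl10, most of which lay at −4.8 kb. At the body RNAPII-pS5 had no peak in either IL-4 PT/ctrl sample, against 5.03 and 3.10 in ctrl/ctrl. At −4.8 kb it scored 3.99 in IL-4 PT/ctrl replicate 1 and had no peak in replicate 2, against 10.5 and 9.06 in ctrl/ctrl, which were above 70.9% and 64.0% of the peaks in their lists. The IL-4 PT/ctrl samples were the lower ones at both places. Summed over Cxcl10, RNAPII-pS5 was 3.99 and 0 against 19.3 and 16.1, a change of −2.95 (SE 0.51, adjusted p = 0.0203, 3.53% of genes called lower). The call was lost without ctrl/ctrl replicate 1 or 2 (adjusted p = 0.101 and 0.0969), and without IL-4 PT/ctrl replicate 2, whose value is the floor, the change was −2.20 (adjusted p = 0.0413). It was also lost with the highest score in place of the sum (−2.04, adjusted p = 0.0595) and with the 4 compared samples alone (−2.93, adjusted p = 0.0750). The region over the body changed by −1.64 (adjusted p = 0.00539) and that at −4.8 kb by −2.04 (adjusted p = 0.0606), with 7.14% of regions called lower, and the first compares the ctrl/ctrl peaks of 5.03 and 3.92 with a floor.

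p65 at −5.3 kb of Cxcl11 had no listed peak with IL-4 alone, and had peaks with LPS whether or not IL-4 came before. It scored 10.6 and 8.70 in ctrl/ctrl, had no peak in IL-4 PT/ctrl, and scored 27.6 and 26.4 in ctrl/LPS and 32.8 and 21.5 in IL-4 PT/LPS. With IL-4 alone this region changed by −2.68 (−3.38 to −1.98, adjusted p = 0.00814, 1.48% of regions called lower), against a floor for the missing peaks, and the call was lost without ctrl/ctrl replicate 1 or 2 (adjusted p = 0.0579 and 0.0521). A peak in every sample but the 2 IL-4 PT/ctrl samples was found in 1.46% of p65 regions. The interaction, the LPS response after IL-4 PT minus that without it, was 2.39 (adjusted p = 0.0101, 17.7% of regions called in this direction). It uses the same IL-4 PT/ctrl samples at the floor, so it is not a separate finding. Under LPS itself, IL-4 PT changed this region by −0.29 (adjusted p = 0.517). The interaction call was lost without IL-4 PT/LPS replicate 1 (2.05).

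At the other places p65 was lower in both IL-4 PT/ctrl samples or overlapped. At the Cxcl10 promoter it was 38.3 and 23.0 against 51.6 and 62.4, at −4.8 kb 11.8 and 8.22 against 17.1 and 13.1, and at −11.7 kb 29.2 and 33.0 against 38.2 and 30.4. The first 2 did not overlap and the third did. Summed over the gene, p65 at Cxcl10 changed by −0.72 (adjusted p = 0.274, 2.14% of genes called lower). RNAPII-pS2 changed by −0.71 at Cxcl10 (adjusted p = 0.256) and by −0.39 at Cxcl11 (adjusted p = 0.421), with 6.54% of genes called lower. Of the 6 gene-level fits of Cxcl10 and Cxcl11 with IL-4 alone, 1 was called, that of RNAPII-pS5 at Cxcl10 with the limits given above.

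IL-4 PT left the LPS-induced RNAPII peak over Cxcl10 in place at a lower score. RNAPII-pS5 over the body was 57.2 and 51.8 in IL-4 PT/LPS against 83.7 and 79.0 in ctrl/LPS, and the peaks were 3540 and 3595 bp wide. RNAPII-pS2 was 43.6 and 46.0 against 68.9 and 70.9, with widths of 3672 and 3682 bp. Both pretreated samples lay below both ctrl/LPS samples in score and width for each antibody, without overlap. The change was −0.77 for RNAPII-pS5 (−1.33 to −0.21, unadjusted p from limma 0.0155, adjusted p = 0.0884) and −0.59 for RNAPII-pS2 (−2.42 to 1.25, adjusted p = 0.725), and neither was called, with 5.23% and 6.16% of regions called lower. Summed over Cxcl10, RNAPII-pS5 was 69.9 and 60.0 and RNAPII-pS2 50.5 and 60.2 with IL-4 PT, which gave −0.76 (−1.99 to 0.47, adjusted p = 0.422, 3.58% of genes called lower) and −0.58 (adjusted p = 0.414, 3.06% of genes called lower). At −4.8 kb RNAPII-pS5 went the other way, at 12.6 and 8.15 in IL-4 PT/LPS against 7.78 and 5.35 in ctrl/LPS, both pretreated samples being higher, and this was not called (0.46, adjusted p = 0.704).

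Under LPS, the summed RNAPII-pS5 of Cxcl11 was lower with IL-4 PT. That sum includes the small peaks listed in ctrl/LPS alone, which had to differ. At −5.3 kb RNAPII-pS5 was 16.1 and 9.18 in IL-4 PT/LPS against 21.0 and 21.1, and at −11.7 kb 12.7 and 9.17 against 17.2 and 25.5. Both pretreated samples were below both ctrl/LPS samples at both elements, with changes of −0.98 (adjusted p = 0.107) and −1.15 (adjusted p = 0.0761), and the small peaks found in ctrl/LPS alone were absent. Summed over Cxcl11, RNAPII-pS5 was 28.8 and 18.4 against 67.3 and 77.1, a fall of 1.93 log2 units (change −1.93, SE 0.40, adjusted p = 0.0343), the single call among the 6 gene-level fits, which ranged from −1.93 to −0.51. It was lost without any 1 of the ctrl/ctrl, ctrl/LPS or IL-4 PT/LPS samples (adjusted p = 0.0578 to 0.137), with the replicate number as a block (adjusted p = 0.0551), and with the highest score in place of the sum (−1.15). RNAPII-pS2 at Cxcl11 was 44.9 and 50.4 against 72.5 and 71.5, without overlap and without a call (−0.64, adjusted p = 0.256). The small peaks found in ctrl/LPS alone are part of the RNAPII-pS2 sum as well, and with the highest score the change was 0.19. At −5.3 kb RNAPII-pS2 was 26.1 and 25.0 in IL-4 PT/LPS against 21.3 and 23.0, both pretreated samples being higher, and at −11.7 kb it was 18.8 and 25.5 against 20.2 and 19.6, with overlap.

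Under LPS, IL-4 PT lowered p65 at the −4.8 kb element of Cxcl10 and gave no call at its promoter. At the promoter it scored 88.1 and 92.4 in IL-4 PT/LPS against 70.6 and 63.6 in ctrl/LPS, and at −4.8 kb 20.5 and 24.3 against 50 and 43.1. The groups did not overlap at either place, the pretreated samples being higher at the promoter and lower at −4.8 kb. After centring the promoter changed by 0.16 (adjusted p = 0.724) and −4.8 kb by −1.33 (−1.96 to −0.69, adjusted p = 0.0114, 5.65% of regions called lower). The call at −4.8 kb was lost without IL-4 PT/LPS replicate 1 or 2 (−1.24 and −1.41, adjusted p = 0.129 and 0.0962) and when only regions with a peak in every sample were kept (adjusted p = 0.0701). The difference between the promoter and the −4.8 kb element was not tested.

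At Cxcl11, p65 with IL-4 PT was lower at the start, at 10.1 and 6.72 against 16 and 11.2, both pretreated values being below both others, without a call (−0.97, adjusted p = 0.0627). At −11.7 kb it was 54.5 and 61.7 against 58.3 and 44.4, and at −5.3 kb 32.8 and 21.5 against 27.6 and 26.4, with overlap at both. Summed p65 was 109 and 117 for Cxcl10 and 112 and 110 for Cxcl11 with IL-4 PT, against 121 and 107 and against 122 and 102, also with overlap. The gene-level changes were −0.52 and −0.51 after centring (adjusted p = 0.319 and 0.299, 2.19% of genes called lower). The p65 median over genes was higher by 0.50 log2 units in IL-4 PT/LPS than in ctrl/LPS, and without centring the changes were −0.011 and −0.0077.

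Whether IL-4 PT changed the response to LPS itself was tested as the interaction. limma called 0 of the 6 gene-level interactions of Cxcl10 and Cxcl11, which ranged from −1.32 to 2.19, and 1 passed an unadjusted p of 0.05, RNAPII-pS5 at Cxcl10 (2.19, unadjusted p from limma 0.0214, adjusted p = 0.138), where the IL-4 PT/ctrl values are at or near the floor. Of all genes, limma called 6.11% (RNAPII-pS5), 6.38% (RNAPII-pS2) and 7.42% (p65). At region level the small RNAPII regions of Cxcl11 that had a peak in ctrl/LPS alone were called lower, as 8.5% of all RNAPII-pS5 regions and 8.32% of all RNAPII-pS2 regions were, and these are the regions that had to differ.

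**Figure D5:**
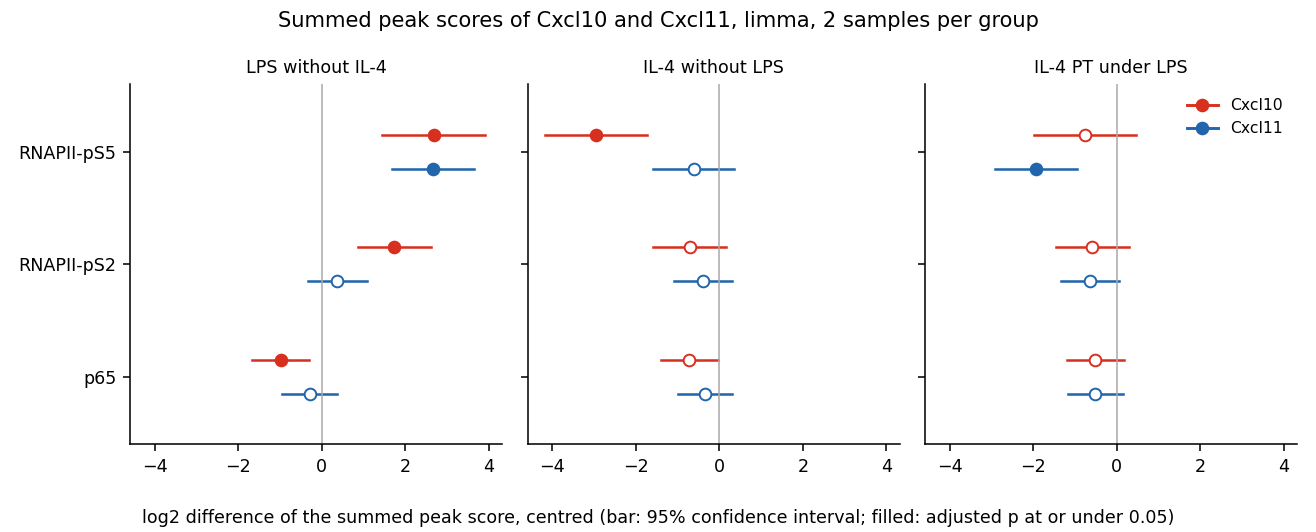
Log2 differences of summed scores for Cxcl10 and Cxcl11 with 95% intervals from limma, by antibody, for LPS without IL-4, IL-4 without LPS, and IL-4 PT under LPS, after centring each sample. Filled points passed an adjusted p of 0.05, the p65 values with LPS turn positive without centring (0.66 and 1.35), and the RNAPII-pS5 values of both genes lie far above 0 with LPS and below 0 in both IL-4 comparisons.

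Other genes of the pathway are given by lists. Of 28 type I interferon response genes, 16 rose in RNAPII-pS5 with LPS and 0 fell, beside 8.3% of all genes called higher and 17.1% lower, with a median of 1.74 against −0.34 over all genes. The highest were the guanylate-binding protein genes Gbp5 (3.91) and Gbp2 (2.96), the GTPase gene Ifi47 (2.99) and the exonuclease gene Isg20 (2.82). In RNAPII-pS2 4 of the 28 tested rose and 1 fell, a count near the 11.8% of all genes called higher, with 14.9% called lower. With IL-4 alone 10 of the 28 fell in RNAPII-pS5 (median −1.27 against −0.03, 3.53% of all genes called lower), led by the antiviral effectors Ifit3 (−3.75), Rsad2 (−3.64), Ifit1 (−3.53) and Oasl1 (−3.13), and with IL-4 PT under LPS 1 fell, Isg20 (−1.82, list median −0.47, 3.58% of all genes called lower).

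Among the other CXC chemokine genes, 3 of the 8 tested rose in RNAPII-pS5 with LPS (8.3% of all genes), the neutrophil attractants Cxcl3 (4.44), Cxcl2 (2.21) and Cxcl1 (1.93). After 1 hr of IL-4, 6 of the 7 tested fell in H3K27Ac (18.1% of all genes, list median −0.69 against −0.01), led by Cxcl2 (−1.33), Cxcl1 (−0.87) and Cxcl16 (−0.80), while Cxcl10 and Cxcl11 were not called. Of 28 genes of interferon and NF-κB signalling, 5 rose and 2 fell in RNAPII-pS5 with LPS, where 8.3% of all genes were called higher and 17.1% lower. The largest called changes were those of Rel (1.68), Ifngr1 (−1.64), Ikbke (1.55) and Tnfaip3 (1.32). RNAPII-pS5 at the receptor gene Cxcr3 changed by 2.37 with LPS alone, without a call, and by 3.53 with LPS after IL-4 PT (adjusted p = 0.0474, 7.02% of genes called higher), where both IL-4 PT/ctrl samples stood at the floor. Among the neighbours of the locus, Scarb2, a lysosomal membrane protein gene, was called lower with LPS alone in RNAPII-pS5 (−1.94), RNAPII-pS2 (−3.14) and p65 (−2.84, after centring), and with IL-4 alone in RNAPII-pS5 (−2.31) and RNAPII-pS2 (−4.58). With LPS after IL-4 PT it rose in RNAPII-pS2 (2.14, adjusted p = 0.0319, 9.65% of genes called higher, interaction 5.28, adjusted p = 0.0139). Art3, within whose intron the chemokine elements lie, fell in RNAPII-pS5 with IL-4 alone (−2.77) and rose with LPS after IL-4 PT (3.31, adjusted p = 0.00223), both against a floor in the IL-4 PT/ctrl samples. After 1 hr of IL-4, H3K27Ac was called higher at Naaa (0.72, adjusted p = 0.00941) and Sdad1 (0.52, adjusted p = 0.0135). It was called lower at Scarb2 (−0.29, adjusted p = 0.0370), and 32.8% of all genes were called in either direction. Sdad1 was also called higher in p65 with LPS alone (1.43 after centring, adjusted p = 0.0362, 19.1% of genes called higher). Nup54 gave no call.

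The genes whose pattern was most like Cxcl10 over the 24 samples of the LPS experiment, by Pearson r across 10105 genes, were Aoah (0.953), March5 (0.942) and Poc1b (0.929). For Cxcl11 they were Hcls1 (0.863), Mefv (0.856) and Abcc1 (0.846). Cxcl10 and Cxcl11 had an r of 0.802 with each other, which placed Cxcl11 55th for Cxcl10 and Cxcl10 10th for Cxcl11. The 24 values share samples of 3 antibodies and the common LPS and IL-4 groups, so r describes the shape of the pattern and carries no test, and Cxcl9 could not be ranked.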

How the data were processed

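The authors aligned reads to mm10 with BWA 0.7.10, filtered out the ENCODE blacklist and used HOMER 4.2 for annotation, and the submitters' processing notes also list MACS2 2.0.10 and SAMtools 0.1.19. The authors called peaks per sample with MACS2 (q of at most 0.01), and the deposited score is a −log10 value. H3K27Ac regions came from findPeaks of HOMER (histone style, size 1000 bp), with a deposited signal of normalized tags. No input control is stated, and depth is unknown.

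Peaks with 1 of the 3 gene names were taken from all lists. Members and gene lists were chosen with earlier results of these data known. Peak scores were summed per gene, and the value of a region (peaks merged at an overlap of 1 bp) the highest score. Features with a peak in at least 2 samples were kept, missing peaks received the lowest score of the antibody (the floor), and log2 values were centred per sample on their median over features with no missing peak. limma 3.58.1 in R 4.3.3 was fitted to all features of an antibody, with 4 samples for the 1 hr experiment and 8 for the LPS experiment, and p-values were adjusted with the Benjamini-Hochberg method over all features (call: at most 0.05). LPS was also tested over 4 against 4 samples with an exact permutation test on log2(score + 1); with 2 against 2 the smallest exact p is 0.333. Exact, unadjusted and adjusted values are two-sided.

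Named were the members in every antibody and condition, their regions with a peak in both replicates of a group, the assayed enhancer, the 3 genes most like each member, the 5 neighbours, and up to 4 called genes per list. Alternatives were no centring, a floor 4 times as high, a peak in every sample, the upper 50% of peaks, quantile normalisation, no filter, the highest score, intergenic peaks left out, an overlap of 50%, a replicate block, the 4 compared samples alone, peak names in place of labels, and leaving out each sample. In data simulated for RNAPII-pS5 at 1 hr (13481 genes), 0%, 60.6% and 89.4% of changed genes were called at log2 changes of 1, 2 and 4. For p65 in the LPS experiment (12312 genes) the shares were 0%, 12.1% and 74.2%. Each simulation changed 200 features, whereas the real p65 fit with LPS called 2349 genes higher and 1975 lower. The shares therefore need not hold for the real fits, some of which called changes smaller than 1. Same-numbered replicates did not deviate together (correlations −0.05 to 0.07). The R package data.table (version 1.17.8), Python 3.11.15, pandas 2.3.3 and matplotlib 3.10.9 were used. The authors' fold changes from reads could not be repeated without reads.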

Additional observations from a re-analysis of the deposited data

Results flagged for a closer look

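The response to LPS differed with and without IL-4 PT, by the interaction term in limma, at 9 regions of Cxcl11. For RNAPII-pS5 the interaction was −1.78 at 4.3 kb, −2.21 at 1.3 kb, −1.80 at −7.0 kb and −3.05 at −10.8 kb, and for RNAPII-pS2 it was −2.51 at 4.3 kb, −2.02 at −7.2 kb, −2.19 at −10.9 kb and −2.17 at −13.3 kb. These 8 RNAPII regions entered the fits only through the 2 ctrl/LPS samples, so they had to differ, and the differences are those between a small peak and the floor. For p65 the interaction at −5.3 kb was 2.39, where the IL-4 PT/ctrl samples had no peak and the other 6 did.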

How the results depend on the processing

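Of 663 values of 46 results under the alternatives, 541 kept their direction and their side of the threshold (or moved by less than 1.5 times, for counts), 82 lost the threshold, 15 gained it, 15 reversed and 10 counts moved; where a cause is not named it was not tested. With the highest score in place of the sum, RNAPII-pS5 at Cxcl11 changed by 0.92 with LPS and −1.15 with IL-4 PT under LPS, RNAPII-pS2 at Cxcl11 by −0.56 and 0.19, and p65 at Cxcl10 by 0.12 with IL-4 PT. With the upper 50% of peaks, the IL-4 PT change of RNAPII-pS5 at Cxcl11 was −1.44, and RNAPII-pS2 there changed by −0.39 with LPS and 0.037 with IL-4 PT. Quantile normalisation gave −1.68 for the former, and a floor 4 times as high made the −0.76 of RNAPII-pS5 at Cxcl10 with IL-4 PT a call (adjusted p = 0.0469). With the replicate number as a block, the calls of RNAPII-pS5 at Cxcl11 with IL-4 PT (−1.93, adjusted p = 0.0551) and of p65 at Cxcl10 with LPS (−0.98, adjusted p = 0.0602) were lost; same-numbered samples share only a number. p65 with LPS was 0.66 at Cxcl10 and 1.35 at Cxcl11 without centring, and −0.87 at Cxcl10 with intergenic peaks left out. Peak names in place of labels gave −2.09 for RNAPII-pS2 at Cxcl10 after 1 hr.

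Of the gene-level fits of Cxcl10 and Cxcl11, 2 were called at the unadjusted p after 1 hr of IL-4 and 1 with the upper 50% of peaks (0 before). The 2 include RNAPII-pS2 at Cxcl10, which had to differ. With IL-4 alone, 2 were called at the unadjusted p, 0 with the highest score and 0 with the 4 compared samples alone (1 before). Of the interactions, 1 was called at the unadjusted p, 1 with the upper 50% of peaks and 1 with quantile normalisation (0 before). Leaving out a sample gave 2.59 to 2.85 for RNAPII-pS5 and 1.47 to 1.99 for RNAPII-pS2 at Cxcl10 with LPS, −2.26 to −1.59 for RNAPII-pS5 at Cxcl11 with IL-4 PT, −1.10 to −0.87 for p65 at Cxcl10 with LPS, and 0 to 1 calls with IL-4 alone. Among p65 regions, no centring gave 0.24 at the Cxcl10 promoter and 0.58 at −11.7 kb of Cxcl11 with LPS, and 0.19 at −11.7 kb with IL-4 PT, where the upper 50% of peaks gave 0.0088. Leaving out a sample gave −0.29 to 0.12 at −11.7 kb with IL-4 PT (positive without ctrl/LPS replicate 1), −0.63 to 0.052 at −5.3 kb (positive without IL-4 PT/LPS replicate 2) and −0.65 to 0.015 at −7.2 kb (positive without ctrl/LPS replicate 2). Counts over features with a peak in every sample were not recomputed, because members drop out.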
